A study of Drosophila melanogaster with 6 samples.

Results

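The peaks described here are those listed with 3 genes of Notch signalling in the Klu-Dam binding data of the Drosophila midgut. The genes are Bx42, which encodes a nuclear cofactor, and the Notch targets E(spl)mdelta-HLH, in the E(spl) gene cluster, and E(spl)mgamma-HLH, its neighbour. They were found by gene symbol and chromosome, because the tables give the identifier of Bx42 to another gene as well. Of 1898 entries in the coherent peak table, each a pair of a peak and a nearby gene, 5 belonged to these genes. These entries came to 4 distinct peaks among 1122. The semicoherent table, with 1250 peaks, held the same 4 with the same counts.

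The binding of Klumpfuss (Klu), a DNA-binding protein of the WT1 type, was mapped by targeted DamID. In this method a bacterial methylase (Dam) fused to the protein marks adenines in GATC sites near the places where the protein sits, and methylated fragments are amplified and sequenced. The series had 3 libraries of Klu-Dam (genotype esgts, UAS-Flp, UAS-Klu Dam) and 3 of Dam by itself (esgts, UAS-Flp, UAS-Dam control). Both kinds of fly carried esg-Gal4 with a temperature-sensitive Gal80, UAS-GFP and a Flp transgene, were reared at 18 °C and were shifted for 24 h. By the labels each replicate pooled 30 to 40 midguts (the methods of the study name a larger maximum), and replicate sets were taken on separate dates. Fly age is not given in the sources used here. By the methods of the study, Flp removed a STOP cassette from a construct read from a minimal heat-shock promoter, although the labels write UAS-Dam. This excision is inherited, so daughters of Esg+ cells keep the active construct. Read counts were used for the Klu-Dam libraries only. The control background is therefore missing beside each value, and whether a peak exceeds Dam-only was not tested here. The authors had called the peaks from log2 ratios of Klu-Dam over Dam-only. The DNA came from whole midguts, and more marked cells cannot be told apart from more methylation per cell. Genomic DNA holds no marker of cell type, so the label of the cells was not checked.

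Notch is a receptor that is cut on binding its ligand, after which its intracellular part enters the nucleus and joins the DNA-binding protein Su(H) and the coactivator Mastermind. The best-known genes switched on by this complex are those of the Enhancer of split complex, E(spl), a cluster on arm 3R. Many of them encode basic helix-loop-helix (bHLH) repressors, and E(spl)mgamma-HLH and E(spl)mdelta-HLH are among these. Bx42 is the fly counterpart of human SKIP (SNW1), a nuclear protein of splicing and transcription that binds the intracellular part of Notch. In the midgut, Notch is active in enteroblasts, the progeny of the intestinal stem cell that become enterocytes.

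At the E(spl) genes 3 peaks lay side by side. The upstream peak (3R, 25995979 to 25997503, 1525 bp) ended 118 bp before the start of E(spl)mdelta-HLH (FBgn0002734, 3R, 25997621 to 25998633, plus strand). The gene-body peak (25997602 to 25999132, 1531 bp) covered 100% of that gene. The intergenic peak (25999192 to 25999782, 591 bp) lay between both genes and ended 69 bp before the start of E(spl)mgamma-HLH (FBgn0002735, 3R, 25999851 to 26000761, plus strand). Positions are on Release 6 of the genome, which is dm6. The fourth peak, listed with Bx42 (FBgn0004856, X, 9103870 to 9106604, minus strand), ran from 9102942 to 9103475 (534 bp) and lay 395 bp beyond the 3′ end of that gene.

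Stretches of reference sequence under these peaks, printed from the plus strand except for the last, show what the positions mean. The part of the intergenic peak next to E(spl)mgamma-HLH, chr3R:25999483-25999782, is shown because of the pair of Su(H)-type sites in it. Capitals mark GTGAGAA and, on the other strand, GTGGGAA, which reads TTCCCAC here.
intergenic peak, part near E(spl)mgamma-HLH: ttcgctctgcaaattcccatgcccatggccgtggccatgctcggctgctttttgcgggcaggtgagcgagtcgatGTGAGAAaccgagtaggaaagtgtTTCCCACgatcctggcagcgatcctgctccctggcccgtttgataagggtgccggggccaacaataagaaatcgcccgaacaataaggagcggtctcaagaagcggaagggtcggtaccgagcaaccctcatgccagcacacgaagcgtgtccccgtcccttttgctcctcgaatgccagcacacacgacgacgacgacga
The 300 bp before the start of E(spl)mdelta-HLH, chr3R:25997321-25997620, run from the end of the upstream peak across the gap to the first bases of the gene-body peak. Capitals mark the GATC sites at which peaks and fragments begin and end, and a CACGTG site of the kind bound by bHLH repressors.
before E(spl)mdelta-HLH: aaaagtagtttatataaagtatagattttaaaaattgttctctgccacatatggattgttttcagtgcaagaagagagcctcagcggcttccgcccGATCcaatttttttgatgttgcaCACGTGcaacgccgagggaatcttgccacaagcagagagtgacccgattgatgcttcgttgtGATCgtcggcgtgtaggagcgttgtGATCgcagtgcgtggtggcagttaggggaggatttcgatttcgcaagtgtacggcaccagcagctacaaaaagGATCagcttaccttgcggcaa
The first 300 bp of the CG7766 intron, X:9103145-9103444, are shown on the minus strand because the peak listed with Bx42 lies in that gene. They begin at the splice donor, and capitals mark the GATC site.
CG7766 intron: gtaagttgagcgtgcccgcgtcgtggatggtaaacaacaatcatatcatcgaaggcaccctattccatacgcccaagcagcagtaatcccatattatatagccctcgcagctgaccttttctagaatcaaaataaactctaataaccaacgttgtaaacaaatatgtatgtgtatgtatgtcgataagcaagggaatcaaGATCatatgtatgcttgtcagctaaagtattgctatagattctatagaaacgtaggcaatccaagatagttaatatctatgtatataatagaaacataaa

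The intergenic peak was the highest of the 4. It held 8067, 7482 and 4940 reads in replicates 1, 2 and 3 of Klu-Dam. Counts were scaled to reads per 1000000 (CPM), with the 19521921, 18287201 and 18347327 reads in coherent peaks as the totals of the libraries. On this scale its level was 413, 409 and 269, with a mean of 364 ± 82.0 CPM (SD, n = 3), and it ranked 336 of 1122. Replicates 1 and 2 lay close together and replicate 3 was lower. Per kb of peak its mean level was 616 ± 139 CPM (rank 154), the densest of the 4, and all of its 591 bp were intergenic. Its GC content was 55.8%, above that of 95.9% of coherent peaks, whose median was 45.4%.

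The upstream peak held 5692, 5063 and 4483 reads, or 292, 277 and 244 CPM. Its mean was 271 ± 24.2 CPM (SD, n = 3), at rank 426. The libraries were closest together here, with a coefficient of variation (CV, the SD as a share of the mean) of 8.92% against a median of 16.7% over all coherent peaks. Of its length, 33.2% was intergenic, and the rest lay on CG43116 (FBgn0262576), a gene on the minus strand of which it covered 91.1%. By position the peak therefore belongs as much to CG43116, with which it was also listed, as to the upstream side of E(spl)mdelta-HLH. A further listed neighbour was Nf1, the neurofibromin gene, which ends 242 bp before it.

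The gene-body peak held 3057, 2839 and 1886 reads, or 157, 155 and 103 CPM, and was the lowest of the 3 at E(spl). Its mean of 138 ± 30.7 CPM (SD, n = 3) ranked 602, close to the median peak at 155 CPM. It ran from 19 bp before to 1511 bp after the start of E(spl)mdelta-HLH. It was also listed with CG43116 and Nf1, at listed distances of 605 and 1864 bp. It took in the 522 bp of coding sequence, 380 bp of 3′ UTR and 111 bp of 5′ UTR, and 33.8% of it was intergenic.

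The peak listed with Bx42 was far lower than those at E(spl). It held 475, 392 and 491 reads, or 24.3, 21.4 and 26.8 CPM. Its mean of 24.2 ± 2.67 CPM (SD, n = 3) ranked 1082 of 1122, near the bottom of the coherent set. Per kb it held 45.3 ± 4.99 CPM (rank 886). Unlike the other 3 peaks it was highest in replicate 3. Its library values did not overlap those of any peak at E(spl), but how often this holds for other pairs of coherent peaks was not counted. The order of the 4 peaks by mean level was the same per kb as per peak.

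**Figure D1:**
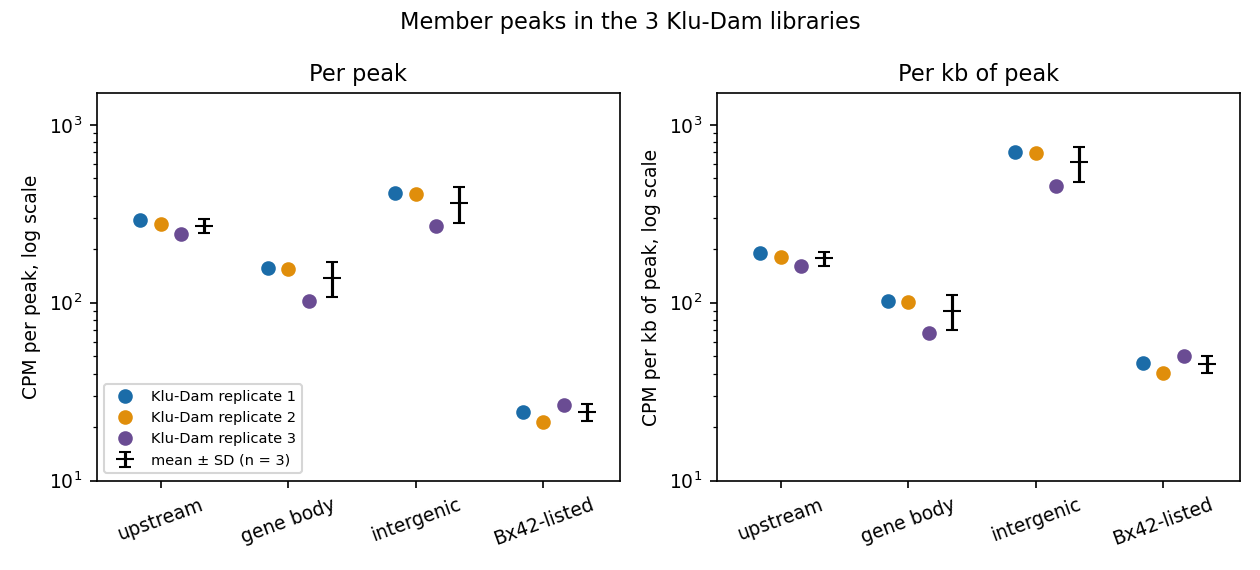
Klu-Dam levels of the 4 peaks in each library, as CPM (left) and CPM per kb of peak (right), both on log axes. Points are replicates 1 to 3 and the black bar with whiskers is the mean ± SD (n = 3). The peak listed with Bx42 lies at 21.4 to 26.8 CPM, and the lowest value of the E(spl) peaks is 103.

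Ratios of peaks within a library do not depend on the scaling, so the 6 pairs of peaks were compared in that way. The intergenic peak was 2.63-fold higher than the gene-body peak per peak and 6.82-fold higher per kb. The ratio per peak hardly varied, with log2 ratios of 1.40, 1.40 and 1.39 in replicates 1, 2 and 3. Their SD was 0.0057, the smallest of the 6 pairs (0.22 to 0.49 for the others) and below the 0.034 that counting error alone gives for such counts. An SD of 3 values is itself uncertain, and whether these 2 peaks vary together was not tested. Among 64 pairs of neighbouring coherent peaks within 2 kb of each other the median SD was 0.25, and 1 of the 64, this pair itself, had an SD that low. The gene-body peak over the upstream peak gave a log2 ratio of -0.99 ± 0.22 (SD, n = 3). The intergenic peak over the upstream peak gave 0.40 ± 0.23, and per kb, where the shorter intergenic peak counts for more, the ratio was 1.77 (3.41-fold). The Bx42 peak over the upstream, gene-body and intergenic peaks gave log2 ratios of -3.49 ± 0.26, -2.49 ± 0.49 and -3.89 ± 0.49. Per kb the same ratios were -1.97, -0.98 and -3.74, so the distance of this short peak from the upstream and gene-body peaks was smaller on that scale. Each of the 6 ratios had the same sign in 3 of 3 libraries, also per kb. These ratios share the same 4 peaks and are not independent, and the share over other pairs of coherent peaks was not counted. The two-sided exact sign-flip permutation test gave p = 0.25 for each (0.25 after Benjamini-Hochberg adjustment over the 6 pairs), the smallest p that 3 libraries allow, so no pair could pass the usual threshold.

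Replicate 3 stood apart at the intergenic and gene-body peaks. The log2 level of replicate 3 over the mean of replicates 1 and 2 was -0.61 at the intergenic peak, -0.60 at the gene-body peak and -0.22 at the upstream peak, and 0.23 at the peak listed with Bx42. It was below 0 at 3 of these 4 peaks, against 48.8% of all coherent peaks. Over all coherent peaks the median was 0.02 (quartiles -0.29 and 0.38). Only 7.13% and 7.75% of peaks lay below the values of the intergenic and gene-body peaks, and 30.8% below that of the upstream peak. Without replicate 3 the CV of the intergenic peak was 0.70% in place of 22.5%, and that of the gene-body peak 0.61% in place of 22.2%, so the spread of both rests on that library. The upstream peak, 98 bp from the gene-body peak, moved less with replicate 3.

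**Figure D2:**
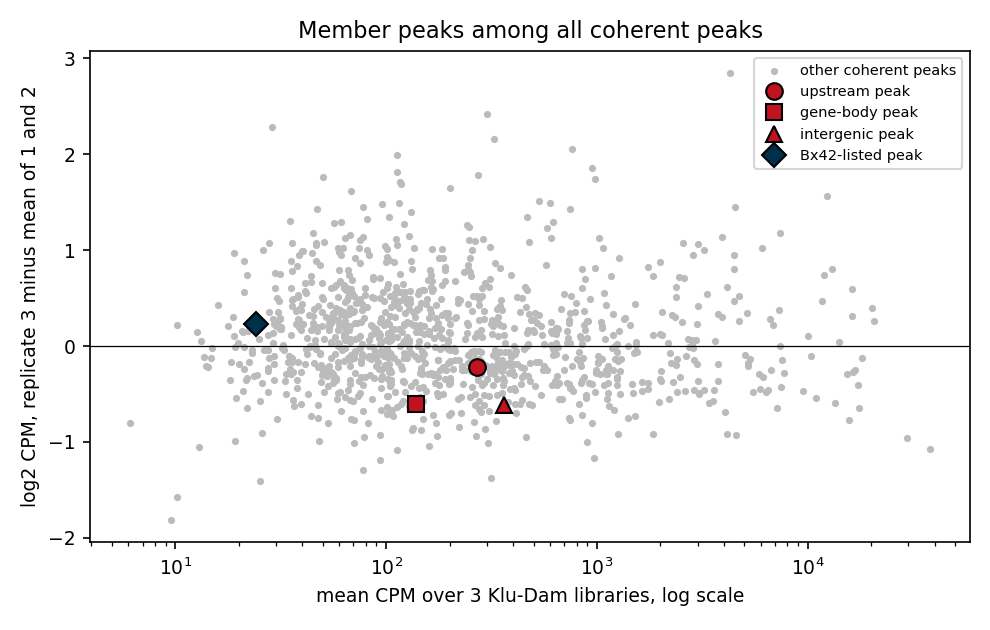
Difference of log2 CPM between replicate 3 and the mean of replicates 1 and 2 (vertical axis) against mean CPM on a log axis, for the 1122 coherent peaks. Grey points are other peaks, red symbols the 3 peaks at E(spl) and the dark diamond the peak listed with Bx42. The intergenic and gene-body peaks lie together near -0.6, in the lower part of the cloud, and the diamond lies above 0 among the lowest peaks.

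The 3 peaks at E(spl) were separated by gaps of 98 bp and 59 bp, which held 2 and 1 GATC fragments. They covered 3647 of 3804 bp. No other run of 3 coherent peaks had both gaps within 100 bp, and only 4 coherent peaks were followed by another at such a distance, a limit chosen after these gaps were seen. The upstream, gene-body and intergenic peaks took in 3, 6 and 4 GATC fragments, against a median of 6. With 3 peaks, E(spl)mdelta-HLH was among the 1.61% of listed gene symbols (27 of 1678) that had 3 or more, of which 23 had exactly 3. E(spl)mgamma-HLH and Bx42 had 1 each. The single peak of E(spl)mgamma-HLH was at the same time the last of the 3 listed with E(spl)mdelta-HLH, 559 bp beyond its end, so the entries of these genes are not independent.

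Outside this run the E(spl) complex held no coherent peak. The complex spans 43388 bp and 12 genes, of which 2 were listed and 10 were not. The 2 are described here because they have peaks. Of all protein-coding genes 11.2% were listed, and their median distance to the nearest coherent peak was 26140 bp. The absence of a peak at most genes of the complex is therefore common in the genome. The nearest of the 10 was E(spl)mbeta-HLH, another bHLH repressor, 5264 bp from a peak, and the farthest was E(spl)m8-HLH at 40458 bp. None of the 4 genes of the Bearded family in the complex, which encode small inhibitors of Neuralized, was listed, and neither was groucho (gro), the corepressor gene next to it, at 41954 bp. The next coherent peak lay 230369 bp beyond the intergenic peak, and the previous one 329804 bp before the upstream peak.

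**Figure D3:**
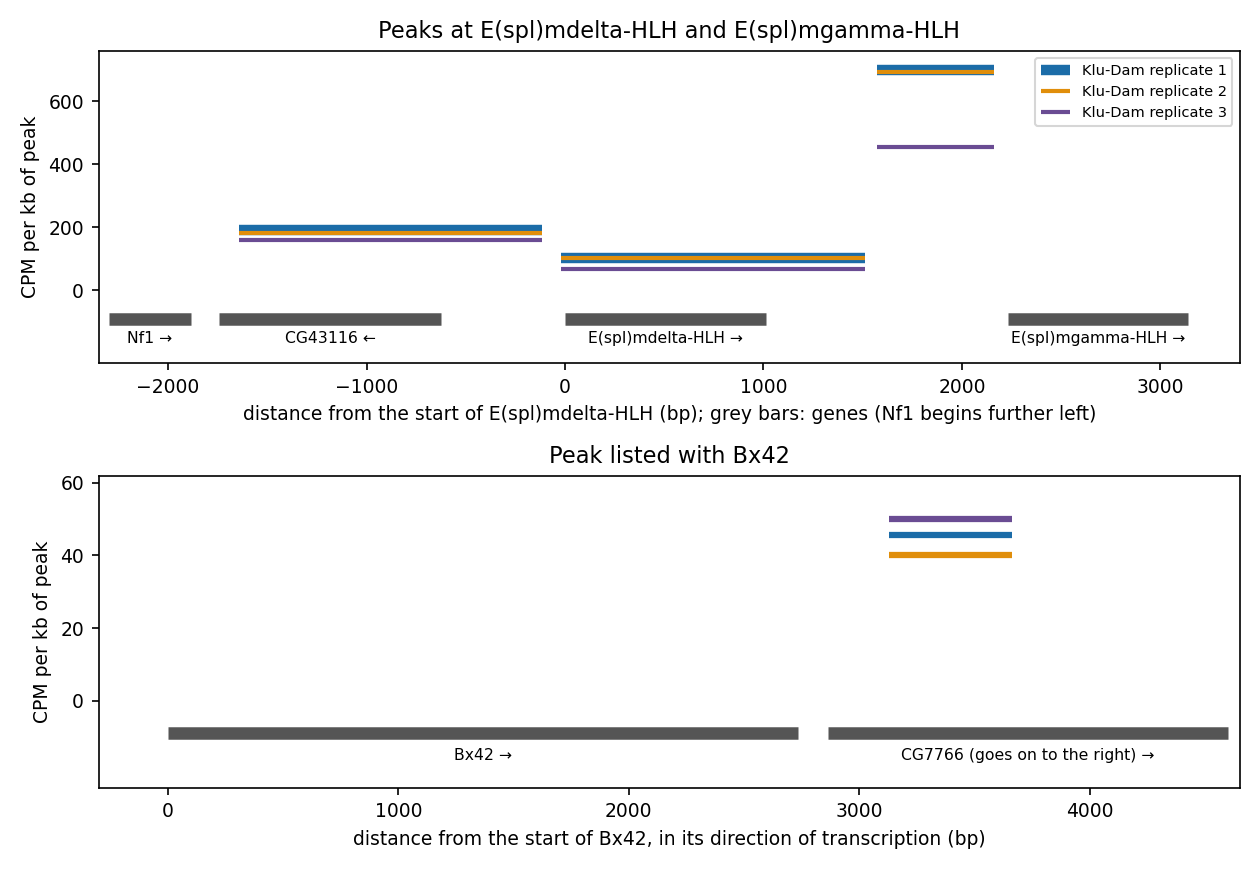
Klu-Dam level in CPM per kb of peak (vertical axis) at the E(spl) genes, against the distance in bp from the start of E(spl)mdelta-HLH, and at Bx42, against the distance from its start in the direction of transcription. Coloured lines span each peak at the level of 1 replicate, grey bars are genes and arrows their direction. The intergenic peak stands highest, just before E(spl)mgamma-HLH. The peak listed with Bx42 lies inside CG7766, 264 to 797 bp after the start of that gene and past the end of Bx42.

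The peak listed with Bx42 did not touch that gene. It lay wholly inside CG7766 (FBgn0030087, X, 9093612 to 9103739, minus strand), from 264 to 797 bp after the start of that gene. Of the peak, 64.4% was intron, 24.3% coding exon and 11.2% 5′ UTR of CG7766. The authors' table did not list CG7766 with it. Coherent peaks that overlapped a protein-coding gene but none of their listed genes made up 6.77% of the set (76 of 1122), and this was among them. From the start of Bx42 the peak was 3129 to 3662 bp away. Its listed distance was 1376 bp, because the table measured from the start of the peak to the end of a shorter form of Bx42 (9104318). The same way of measuring gave 1642 bp for the upstream peak, whose nearer edge was 118 bp from E(spl)mdelta-HLH.

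The name Bx42 calls for care in these tables. Its identifier was also given to SKIP, a gene on 3R that encodes a protein interacting with the Shal potassium channel and whose identifier in the reference annotation is FBgn0051163. RefSeq gives SKIP as a synonym of Bx42, and 11 identifiers in the table were given to more than 1 symbol. The peaks listed with SKIP were far higher. The first (3R, 22135747 to 22139809) held 121949, 83969 and 51669 reads, a mean of 4552 ± 1716 CPM (SD, n = 3), which is 188-fold the mean of the peak listed with Bx42. The other (3R, 22291296 to 22294278) held 398473, 319137 and 261859 reads, 17378 ± 3070 CPM and 719-fold. These peaks are 4063 and 2983 bp long, and per kb they were 24.7-fold and 129-fold the peak listed with Bx42. A search by identifier alone would thus give Bx42 the seventh highest peak of the set.

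Letters of known binding sites were searched on both strands, and a match describes the sequence, not a site in use. The Su(H) core GTGGGAA occurred 2 times in the intergenic peak, 2 times in the upstream peak and 0 times in the gene-body peak and the peak listed with Bx42. It was present in 18.9% of whole coherent peaks, in 3.48% of their central 300 bp windows and in 3.51% of 300 bp stretches before the 13945 protein-coding genes. In the central window the intergenic peak had 2 matches and the upstream peak 1. The related letters GTGAGAA, searched after the sequence was seen, occurred 1 time in each of these peaks and in 16.5% of whole peaks. In the intergenic peak GTGAGAA (25999558 to 25999564) and GTGGGAA on the other strand (25999582 to 25999588) face each other 17 bp apart, at -293 to -263 bp from the start of E(spl)mgamma-HLH, as capitals in the first sequence show. Facing pairs of Su(H) sites are known from E(spl) genes. With either spelling and 15 to 17 bp between, such a pair was in 2 of 1122 whole coherent peaks. It was in the 300 bp before 2 of 13945 protein-coding genes, which were E(spl)mgamma-HLH and E(spl)m8-HLH. These letters and spacings were chosen after the sequence was seen.

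Letters of bHLH repressor sites (class C and N-box) occurred in the upstream and gene-body peaks, which are longer, and not in the intergenic peak. The class C site CACGNG occurred 2 times in the upstream peak, 1 time in the gene-body peak and 0 times in the other 2 (74.3% of whole coherent peaks). The CACGTG of the upstream peak, at -181 bp from the start of E(spl)mdelta-HLH, is in capitals in the second sequence, and counts as an E-box (CANNTG) too. The N-box CACNAG occurred 4, 3, 0 and 1 times in the upstream, gene-body, intergenic and Bx42 peaks (88.9% of whole peaks), and 1 of the matches in the upstream peak, CACGAG, is also a class C site. E-boxes numbered 10, 7, 3 and 3 (98.9%). The core GTGGGNG of WT1-type zinc fingers occurred 1 time each in the upstream and gene-body peaks and 0 times in the intergenic and Bx42 peaks (65.2%). It shares its first letters with GTGGGAA, but no stretch can match both on 1 strand. Whole peaks differ in length, and the central windows of the 4 peaks held 0 matches to GTGGGNG and CACGNG. The study searched its peaks with published models of the Klu motif, which were not used here. A lack of GTGGGNG therefore does not show a lack of Klu motifs.

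Other genes of the pathway were then looked up, from a list of 46 with 11 roles. Of these, 9 (19.6%) were listed with a coherent peak, against 11.2% of all protein-coding genes, and the same number with a semicoherent one. The 9 include both E(spl) genes and Bx42, which are described here because they have peaks, and without these 3 genes 6 of 43 (14.0%) were listed. The list's genes were longer, with a median of 3427.5 bp against 2166 bp for protein-coding genes, and its members were chosen with results of these data known. By overlap of the gene body the count was 8 of 46, or 7 of 43 without the same 3 genes, against 9.99% of protein-coding genes. Besides the E(spl) genes and Bx42 the 9 were mam, h, Fur1, nct, numb and dx. The receptor gene N, both ligand genes (Dl and Ser), Su(H) and all 5 corepressor genes were not listed, and N lay 146566 bp and Su(H) 185717 bp from the nearest peak.

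The role named nuclear cofactor in the list held 4 genes, among them Su(H), which is the DNA-binding protein of the complex. Of these, mam and Bx42 were listed. The mam gene encodes Mastermind, and its peak held 1635, 2240 and 2286 reads, 110 ± 23.0 CPM (SD, n = 3), far inside the gene at 66472 to 68049 bp from its start. The peak of numb, an inhibitor of Notch, held 2944, 3852 and 4121 reads and 195 ± 39.2 CPM. It was the highest of the 6, below the intergenic peak in 3 of 3 libraries. The peak of nct (nicastrin, a subunit of the γ-secretase that cuts Notch) held 2217, 1867 and 1737 reads and 103 ± 9.52 CPM, and was the only one of the 6 to span a gene start. Fur1, a furin protease, had a peak of 54.1 ± 12.5 CPM. The peak of dx (Deltex, a ubiquitin ligase that binds Notch) held 27.3, 33.8 and 21.9 CPM in replicates 1, 2 and 3, and that of h (hairy, a bHLH repressor) 21.1 ± 5.23 CPM, near the level of the peak listed with Bx42. The peak of h lay beyond the 3′ end of its gene, as that of Bx42 did, at 450 bp. In mam, h and numb replicate 3 was the highest library, while in nct, Fur1 and dx it was the lowest. Some of these differences were small. Replicates 2 and 3 of mam had 122 and 125 CPM, and replicates 1 and 3 of Fur1 had 47.1 and 46.7 CPM. Over all coherent peaks, 48.8% had replicate 3 below the mean of replicates 1 and 2 in log2 level, so such a split is common.

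Peak overlaps that the tables did not name, found after the values were seen, involved kuz and neur. The gene kuz encodes the metalloprotease that makes the first ligand-dependent cut in Notch. Its body was overlapped by a peak of 11762, 9128 and 5231 reads (462 ± 162 CPM, SD, n = 3) at 59985 to 62783 bp from its start. This peak was listed only with mir-2489. Per peak it was higher than the intergenic peak at E(spl) in each library. It is also far longer, at 2799 bp against 591 bp, and these 2 peaks were not compared per kb. The gene neur encodes the ubiquitin ligase Neuralized, which acts on Delta. Its first 567 bp were overlapped by a peak of 2854, 3107 and 2371 reads (148 ± 20.4 CPM), which was listed only with hyx.

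**Figure D4:**
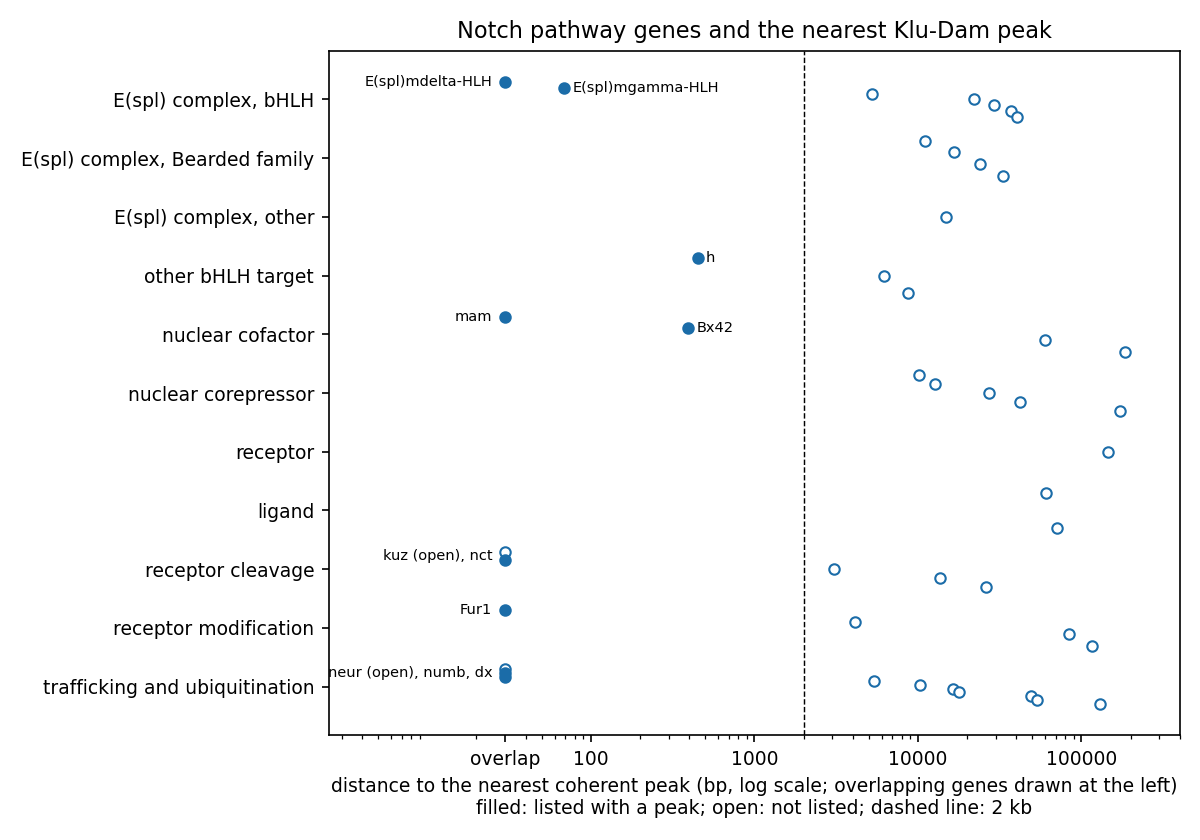
Distance in bp on a log axis from each of 46 Notch pathway genes to the nearest coherent peak, with genes in rows by role. Filled points are genes listed with a peak, open points are genes that were not, the dashed line marks 2 kb, and genes overlapped by a peak are drawn at the left. The 2 E(spl) genes with peaks stand apart from the other 10 of the complex, which lie 5264 to 40458 bp away. Over all protein-coding genes the median distance was 26140 bp.

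Peaks with counts most like those of the 4, by Euclidean distance in log2 CPM over the 3 libraries, were found all over the genome. Nearest to the intergenic peak was a peak listed with jvl (8143, 7055 and 4669 reads, distance 0.12), followed by CR40741 (0.17) and Oatp58Db (0.18). For the gene-body peak they were HERC2 (0.15), CG32237 (0.17) and CG6613 (0.18), and for the upstream peak CG31635 (0.10), CG42271 (0.13) and YT521-B (0.14). For the peak listed with Bx42 they were su(w[a]) (0.22), CG5001 (0.22) and Unc-13-4B (0.27). None of these 12 is a gene of the Notch list. Only 9 genes of that list were among the 1678 listed symbols, so this absence says little about the 4 peaks. Likeness over 3 libraries is a description only.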

How the data were processed

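Per the labels and the methods of the study, the authors aligned reads with bowtie2 to dm6 in damidseq_pipeline, took log2 ratios of Klu-Dam over Dam-only and called peaks. HOMER stands in the submitters' processing notes. The deposited tables give whole-number counts of reads per peak for the Klu-Dam libraries, with listed genes and distances. How reads were counted, and how coherent and semicoherent peaks were defined, is not given in the sources used here. No log2 ratio was used, and the columns of sample values left out numbered 0.

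Counts were divided by the sum over coherent peaks and multiplied by 1000000 (CPM). Starts are 1-based. All 1122 coherent peaks have edges in GATC sites of the reference. Features came from Ensembl annotation of Release 6 (minimum overlap 1 bp), sequences and synonyms from RefSeq. Pairs of peaks were compared by an exact sign-flip permutation test, tested on simulated data. Named genes are the members, listed genes of the Notch list, SKIP and, for each peak, the 3 with most similar counts. Members, lists and motifs were chosen with earlier results of these data known. PCR reads are not independent molecules. Alternatives were library totals, median-of-ratios scaling, the semicoherent set, reads per kb, matching rules, motif windows and leaving out each replicate. Tools were matplotlib 3.10.9, scipy 1.17.1, pandas 2.3.3, numpy 2.4.6 and Python 3.11.15.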

Additional observations from a re-analysis of the deposited data

How the results depend on the processing

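Divided by the library totals of the study in place of the reads in peaks, the mean levels of the upstream, gene-body, intergenic and Bx42 peaks were 149, 75.9, 199.8 and 13.2 CPM, because the divisor is larger. With median-of-ratios scaling and in the semicoherent set they moved by less than the spread between replicates. Without each replicate in turn the means ranged from 261 to 284, 129 to 156, 339 to 411 and 22.9 to 25.5 CPM in the same order. The 6 log2 ratios kept their sign per kb. In the semicoherent set they had to be the same, because the counts are the same and the library scale cancels. Leaving out a replicate could not change a sign that all 3 libraries share. Of the Notch list 9 genes were also listed by identifier, and 11 lay within 2 kb of a peak in the reference annotation. Motif counts in whole peaks and in central windows differed in 8 of 16 cases. No paired analysis was possible because read counts came from 1 group, so replicates of Klu-Dam could not be paired with those of Dam-only. Only peaks within the same library were compared. The fewest reads in any of the 4 peaks were 392, in replicate 2 at the peak listed with Bx42.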
